A study of Mus musculus with 4 samples.

Results

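Regions in which 2 or more islands of acetylated histone H4 lysine 16 (H4K16ac) of mouse embryonic stem cells (ESC) lay in exactly 1 island of neural progenitor cells (NPC) are described here and called fused regions. There were 881 of them on chromosomes 1 to 19, of 14434 merged regions called in both cell types (6.10%, exact 95% interval 5.72% to 6.51%) and of 69310 merged regions in all. An island is a broad stretch that the peak caller SICER built from 200 bp windows enriched in reads, and islands of both lists that shared at least 1 base were merged into a region. The regions were chosen by the positions of the called islands in both lists, with no read number or threshold beyond the authors' calls. The fused regions held 881 of 48170 autosomal NPC islands (1.83%) and 1868 of 39508 autosomal ESC islands (4.73%).

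NPC were cells of 46c, a mouse ES cell line with a GFP reporter in Sox1, differentiated for 5 days with NB27 and Neuro2 supplements and sorted for GFP. ESC were undifferentiated cells of the same line. The mark was assayed by ChIP-seq (immunoprecipitation of chromatin fragments, then sequencing) after micrococcal nuclease digestion. Each cell type had 1 H4K16ac library and 1 input library. Differences between NPC and ESC therefore had no replicate check and no p-value, and all values compare these libraries. Whether separate cultures would give the same islands was not tested.

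H4K16ac sits on the tail of histone H4 and is placed in mammals mainly by the acetyltransferase MOF, which works in the MSL and NSL complexes. Acetylation of this lysine weakens contacts between neighbouring nucleosomes in reconstituted chromatin fibres, and the mark is found over active genes and at regulatory elements. Sox1 encodes a transcription factor that is switched on as ES cells turn into neuroectoderm, which is why its reporter is used to sort progenitors.

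Where several ESC islands met a single NPC island, the NPC island covered each stretch between them, and these stretches are called filled gaps. Since the rule requires it, the closing of the gaps is not a finding. Gap widths, called widths, read numbers and densities come from the same 2 lists, so they are given as descriptions. The lists hold reads inside islands and none outside them, so a gap in ESC is a stretch without a called island and may still carry the mark.

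Most fused regions joined a pair of ESC islands. Exactly 2 ESC islands were joined in 789 regions, 3 in 81, 4 in 8 and 5 in 3. Together the regions held 987 filled gaps that summed to 2.39 Mb. A gap in either list was at least 800 bp wide, since islands up to 600 bp apart are already joined by the gap setting in the names of the lists.

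Short gaps made up most of the filled gaps but held a small part of the filled bases. The median filled gap was 1000 bp wide (10th to 90th percentile 800 to 5400 bp). Of the 987 gaps, 400 (40.5%, exact interval 37.4% to 43.7%) had the smallest width of 800 bp and 580 (58.8%) were at most 1000 bp wide. In 493 regions (56.0%) every gap was at most 1000 bp wide, so that their ESC islands lay within 2 windows of the joining limit. Gaps of at most 1000 bp held 20.9% of the filled bases, whereas the 58 gaps over 8000 bp (5.88% of gaps) held 36.9%. The widest filled gap was 59.8 kb.

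In the regions with most ESC islands, several ESC islands stood in a row inside the NPC island. On chromosome 1, an NPC island at 191693801 to 191739000 (mm9, as are all positions) held 3611 reads over 45.2 kb, or 79.9 reads per kb. The 5 ESC islands in it held 416, 653, 643, 224 and 419 reads, at 71.4 to 86.2 reads per kb, and their gaps were 0.8, 1.2, 0.8 and 4.6 kb wide. The NPC island began before the first ESC island and ended after the last.

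On chromosome 11, an NPC island at 100107401 to 100155800 held 4312 reads at 89.1 reads per kb over 48.4 kb. It joined 5 ESC islands of 3.2 to 10 kb with 76.3 to 108 reads per kb across gaps of 0.8 to 1.6 kb, and 14.6 kb of it lay in flanks beyond the outermost ESC islands. On chromosome 2, an NPC island at 27770201 to 27831400 held 6390 reads at 104 reads per kb. The 5 ESC islands there held 5106 reads in all at 83.7 reads per kb, and covered 93.8% of the NPC island. Both remaining regions of this group had 4 ESC islands, with 22.6 kb in gaps on chromosome 1 (start 95084201) and 2.6 kb on chromosome 2 (start 27534001).

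**Figure D1:**
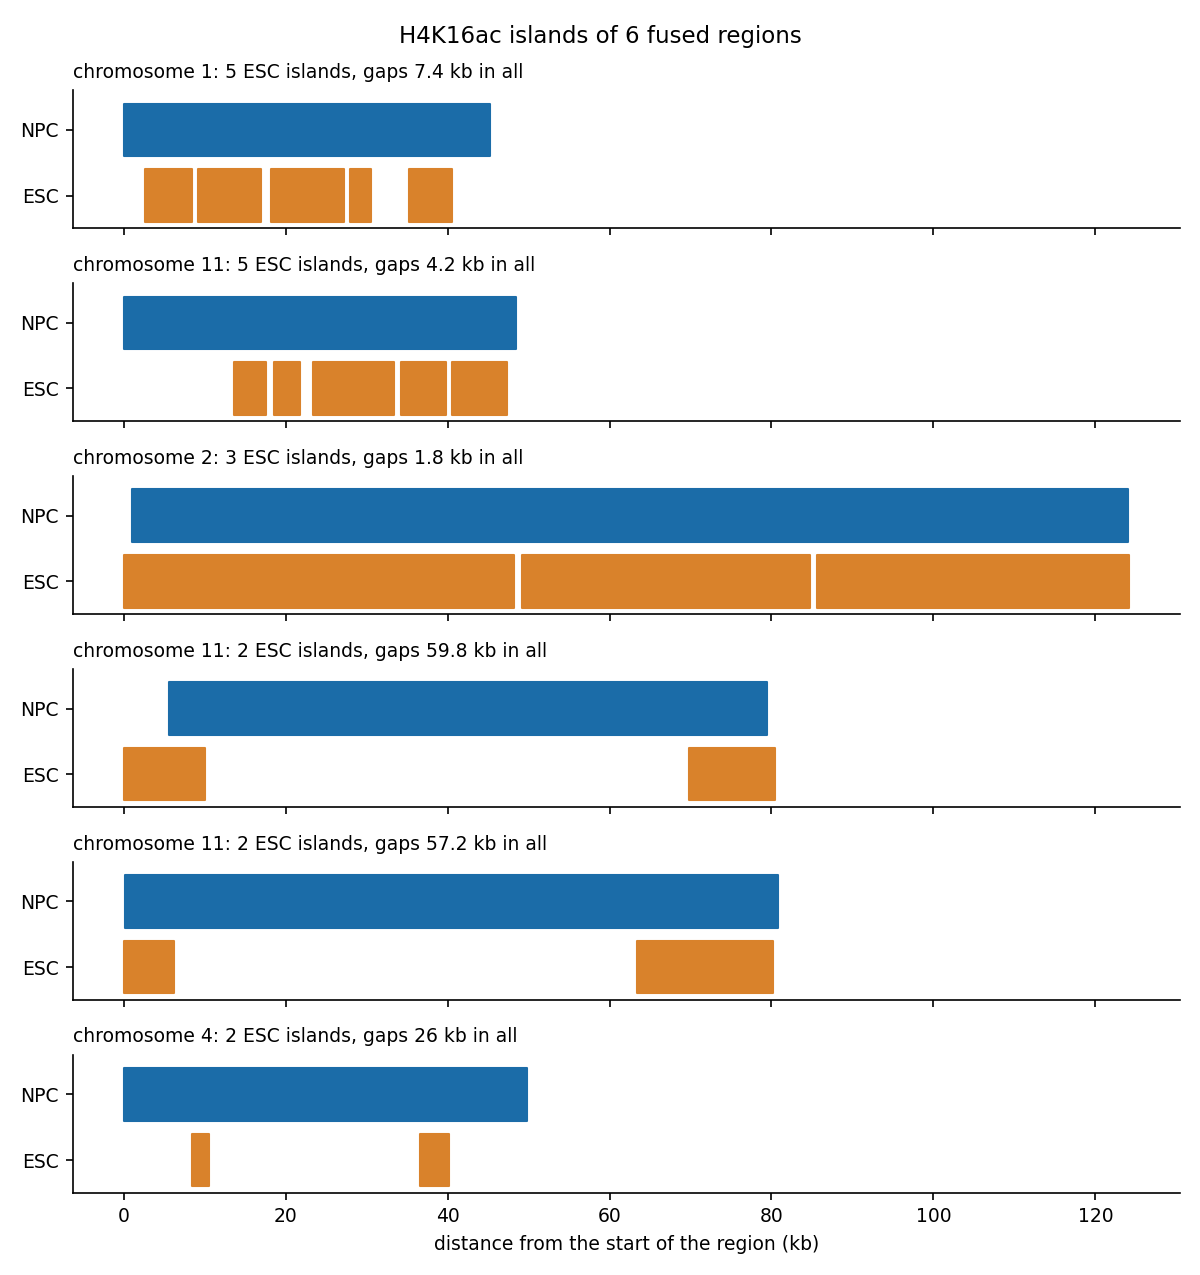
Islands of 6 fused regions, drawn to scale as distance from the start of each region in kb, with the NPC island above the ESC islands. From top to bottom, 5, 5 and 3 ESC islands are separated by gaps that sum to 7.4, 4.2 and 1.8 kb, and in the lower 3 regions 2 ESC islands are separated by single gaps of 59.8, 57.2 and 26 kb.

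In the 5 regions with the widest gaps, 2 or 3 ESC islands lay far apart in a long NPC island. On chromosome 11, an NPC island of 73.8 kb at 118339801 to 118413600 held 6648 reads at 90.1 reads per kb. The ESC islands at its ends, 10 and 10.6 kb wide, held 783 and 856 reads at 78.3 and 80.8 reads per kb, with 59.8 kb between them. The gap took up 81.0% of the NPC island, so its density is largely that of the gap.

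Also on chromosome 11, an NPC island of 80.6 kb at 58790601 to 58871200 held 7965 reads at 98.8 reads per kb. Its ESC islands held 647 and 1235 reads at 104 and 73.5 reads per kb, 57.2 kb apart. On chromosome 4, an NPC island of 49.8 kb at 131031001 to 131080800 held 4765 reads. Only 5.8 kb of it were called in ESC, as islands of 205 and 264 reads with 26 kb between them, and the NPC island reached past both. The other pair of this group lay on chromosome 2, at 172695201 to 172746600 and 180654201 to 180690400, with 32.8 and 28.6 kb in gaps.

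These 5 regions had the most filled bases and also the 5 widest single gaps. Their reads per 1000000 island reads (RPM) were higher in NPC than in ESC. RPM was 273 in NPC and 91.4 in ESC in the first, a log2 of NPC over ESC of 1.58 (exact 95% interval of the read share 1.50 to 1.66). It was 195 in NPC and 26.1 in ESC in the chromosome 4 region, a log2 of 2.90 (2.76 to 3.04), which was the highest of the fused regions. The ESC values leave out any reads in the gaps, which are missing from the list. The intervals cover counting error alone, from 1 library per cell type. Reads were not tagged by molecule, so copies of a fragment may count as separate reads.

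By density the direction in these 5 regions depended on the scaling. Their log2 of reads per kb of called island, after scaling by each list's island reads, ran from -1.01 to -0.17. Without that scaling, reads per kb were higher in NPC in 3 of the 5, at 90.1, 98.8 and 95.7 in NPC and 79.6, 81.8 and 80.9 in ESC in turn.

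Filled gaps were compared with all gaps between neighbouring ESC islands of a chromosome. Of 39489 such gaps, 1679 (4.25%) were filled by a single NPC island that overlapped both neighbours, 987 of them in fused regions and the others in regions with several NPC islands. When an overlap of 50% of the shorter island was required, 2.66% were filled. The share filled was 31.6% (29.6% to 33.6%) at 800 bp, 24.2% (21.9% to 26.7%) at 1000 bp and 12.6% (11.3% to 14.0%) from 1200 to 2000 bp. It was 5.45% from 2200 to 4000 bp, 3.74% from 4200 to 8000 bp, 1.44% from 8200 to 16000 bp and 0.0984% for wider gaps. Where both neighbouring ESC islands overlapped an NPC island, the share filled was 55.1% (52.3% to 57.9%) at 800 bp and 12.5% (10.7% to 14.4%) from 4200 to 8000 bp.

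The reverse class, in which 1 ESC island met 2 or more NPC islands, was larger. There were 1320 such split regions, so that fused regions were 0.667 times as many (0.612 to 0.727), and the order turned round, at a ratio of 1.41, when islands of both lists were first joined across gaps up to 2000 bp. The 881 fused regions had 987 filled ESC gaps with 2.39 Mb in all, and the split regions had 1516 filled NPC gaps with 2.35 Mb in all. The mean filled gap was 2425 bp wide in fused regions and 1550 bp in split regions, and both medians were 1000 bp. Gaps over 8000 bp numbered 58 in fused regions, and 22 in split regions.

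The order of the directions depended on the gaps counted. At 800 bp, 31.6% of ESC gaps were filled in NPC, and 19.2% (18.1% to 20.3%) of NPC gaps were filled in ESC, where the NPC list had 5320 such gaps and the ESC list 2116. With both neighbours overlapped, the shares were 55.1% of ESC gaps and 62.6% (60.2% to 65.0%) of NPC gaps. From 8200 to 16000 bp they were 5.55% (4.42% to 6.87%) of ESC gaps and 2.48% (1.67% to 3.54%) of NPC gaps.

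**Figure D2:**
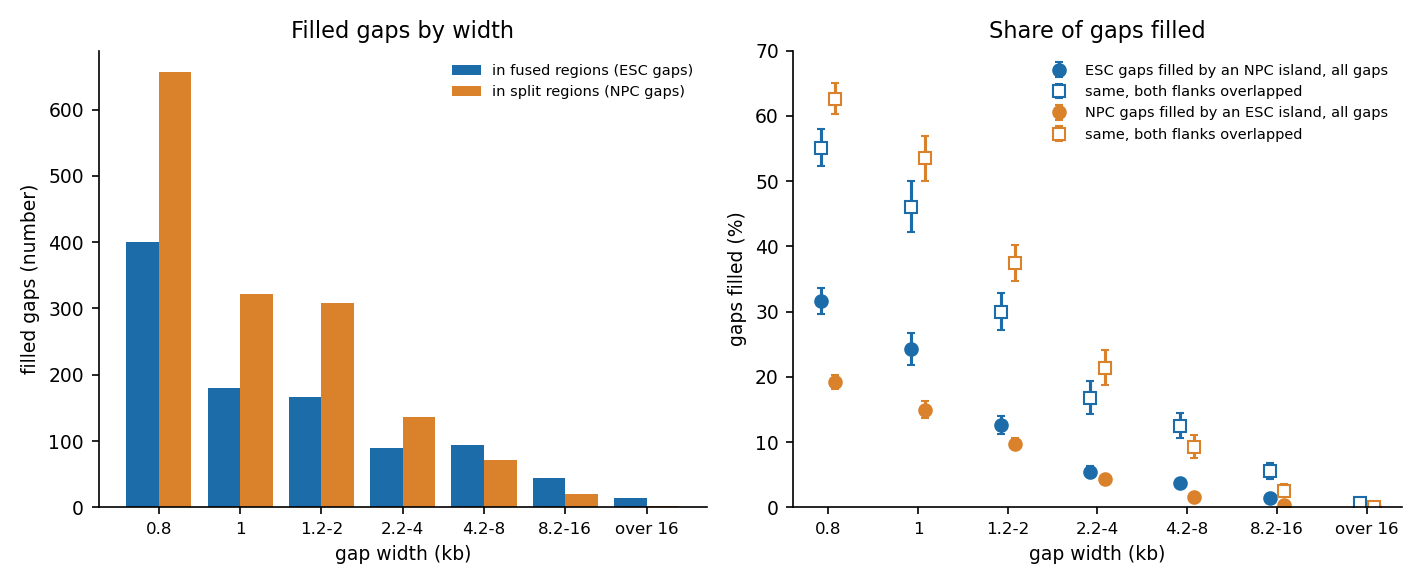
Left, number of filled gaps by width in kb, for ESC gaps of fused regions and NPC gaps of split regions. Right, percent of gaps filled, over all gaps (filled circles) and over gaps with both neighbouring islands overlapped (open squares), with exact 95% binomial intervals. Shares fall with gap width in both directions, and for ESC gaps from 31.6% at 800 bp to 0.0984% for gaps over 16000 bp.

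Among short gaps of 800 or 1000 bp, those between wide ESC islands were filled more often than those between narrow ones. In this set, 15.5% (13.1% to 18.1%) were filled in quartile 1 of flanking island width, whose combined width had a median of 5800 bp. In quartile 4, at a median of 28600 bp, 43.5% (40.1% to 46.9%) were filled. By read density of the flanking islands the share was lowest at the ends, at 26.2% in quartile 1 and 15.8% in quartile 4, the densest, against 36.5% and 37.0% between them. Quartile 4 also had the narrowest islands, with a combined median of 8800 bp, so density and width cannot be told apart here. Where both neighbours overlapped an NPC island, flank width hardly differed with filling. At 800 bp the median combined width was then 16600 bp for filled and for unfilled gaps, and at 1000 bp it was 16600 bp for filled and 15700 bp for unfilled gaps.

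The ESC islands in fused regions were wider than ESC islands in general but narrower than those of split regions. Their median width was 5600 bp, against 4600 bp in regions of 1 ESC and 1 NPC island and 2200 bp for islands called in ESC alone. Islands of at least 8000 bp made up 35.3% of them, 23.2% in the regions of 1 and 1 and 3.75% of the ESC-only islands. Their median density was 84.2 reads per kb, against 83.9 in the regions of 1 and 1 and 104 in ESC-only islands. Islands of at most 2000 bp were 9.96% of the islands in fused regions, 14.2% in the regions of 1 and 1 and 47.0% of ESC-only islands. In split regions the median ESC island was 12800 bp wide, and 77.0% were at least 8000 bp. Within fused regions, the ESC island with most reads had a median width of 8600 bp. The other 987 islands had a median of 4000 bp, with 17.0% of at least 8000 bp and 16.7% of at most 2000 bp.

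Joined islands often differed in width, and neither was the denser as a rule. In the 789 regions with 2 ESC islands, the one with more reads had a median width of 8400 bp and the other 3600 bp. The first was more than 4 times as wide as the other in 127 regions (16.1%) and less than 2 times as wide in 406 (51.5%). Since the pair was ordered by reads, a wider first island follows largely from the ordering at like density. Neighbours of unfilled gaps differed too. Over all ESC gaps of 800 bp, the narrower and the wider neighbour had medians of 4800 and 11000 bp at filled gaps. At unfilled gaps they had 3400 and 7200 bp. The log2 density of the smaller over the larger had a median of 0.02 with an SD of 0.39, and the smaller was less dense in 371 regions (47.0%). The densities of a pair were weakly related (Spearman rho 0.16 over the 789 pairs, from 1 library). Across gaps of at most 1000 bp, rho between neighbouring ESC islands was 0.19 over 580 gaps of fused regions and 0.36 over 2394 unfilled gaps. Across all fused regions the leading ESC island held a median of 63.9% of the ESC reads.

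The NPC islands of fused regions were mostly ESC-covered sequence. Of 17.6 Mb in these islands, 73.0% lay in ESC islands, 13.6% in filled gaps and 13.4% in flanks beyond the outermost ESC islands. In the median region the gaps took up 9.55% of the NPC island (95% interval 8.89% to 10.3%) and the flanks 2.06%. ESC islands reached outside the NPC island with 1.67 Mb, or 11.5% of their 14.5 Mb.

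Many gaps were closed without a wider domain. The NPC island reached past the ESC islands on both sides in 118 regions (13.4%), on 1 side in 383 (43.5%) and on neither side in 380 (43.1%). It was narrower than the span from the first to the last ESC island in 418 regions (47.4%), equal to it in 72 and wider in 391 (44.4%). Against the summed width of the ESC islands, without the gaps, the NPC island was wider in 629 regions (71.4%) and narrower in 231 (26.2%). The median ratio of NPC to ESC called width was 1.11 (25th to 75th percentile 0.976 to 1.47).

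The choice of regions rested on small overlaps in some cases. In 24 fused regions the ESC island with the least overlap shared 200 bp with the NPC island, the smallest overlap possible, and in 68 it shared at most 600 bp. Just outside the rule, 69 ESC gaps were not filled although an NPC island that overlapped one neighbour ended within 200 bp of the other, and in 30 of these it ended where the other began.

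**Figure D3:**
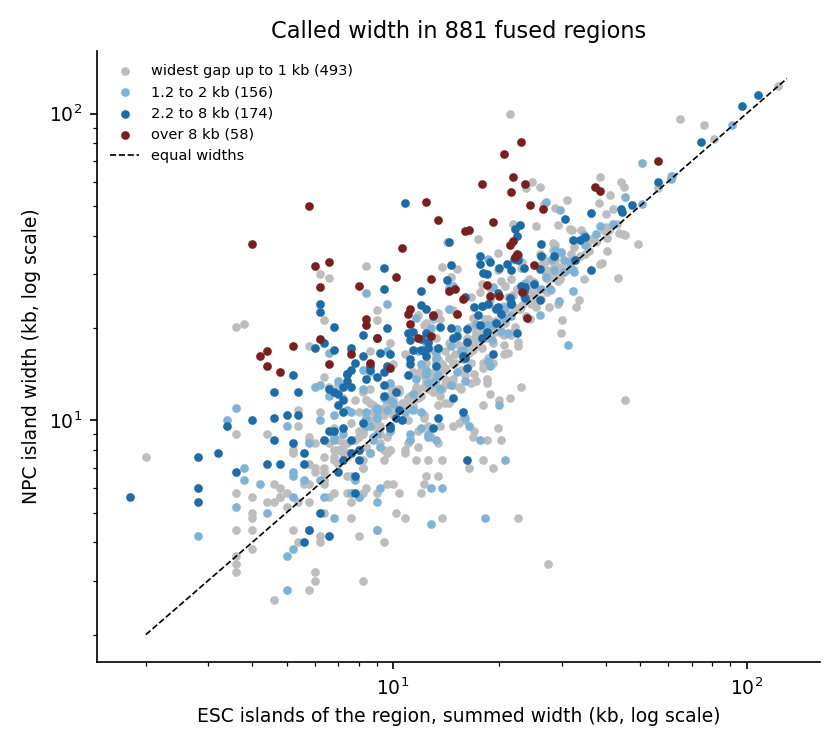
Width of the NPC island against the summed width of the ESC islands for each fused region, in kb on log scales, coloured by the widest filled gap, with a dashed line at equal widths. In 629 of 881 regions the NPC island is the wider, and the 58 regions with a gap over 8 kb lie mostly above the line.

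Reads in fused regions came to 1499443 in NPC, 6.15% of NPC island reads, and 1256147 in ESC, 7.00% of ESC island reads. The median region held 52.7 RPM in NPC and 63.4 RPM in ESC. The log2 RPM of NPC over ESC had a median of -0.30 (-0.32 to -0.27, from order statistics, which treat regions as independent) and an SD across regions of 0.71, and its sign turned, to a median of 0.11, when reads in shared regions were used for scaling, which moves each value up by 0.41. It was above 0 in 243 regions (27.6%), where 22.1% of all regions called in both lists were, and with the other scaling in 525 (59.6%, background 43.6%). RPM was higher in NPC by 2-fold or more in 33 regions (3.75%, background 6.17%) and lower by 2-fold or more in 111 (12.6%, background 28%). Of split regions 2.58% were higher and 17.3% lower. Of regions of several ESC and several NPC islands 0.560% were higher and 8.21% lower. Scaled by reads in shared regions, 71 fused regions were higher (8.06%, background 10.2%) and 57 lower (6.47%, background 19.1%), which turns the order of the fused counts. Island positions and island reads share the same contrast, so these counts describe the regions.

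Log2 RPM was higher in regions with a gap over 2000 bp than in those with shorter gaps. The rule in part sets this order, since reads in a filled gap count in NPC alone. Regions with every gap up to 1000 bp had a median log2 RPM of -0.38 (-0.43 to -0.34), with 83 of 493 above 0 (16.8%, background 22.1%). From 2200 to 8000 bp the median was -0.041 (-0.14 to 0.056), with 81 of 174 above 0 (46.6%). In the 58 regions with a gap over 8000 bp it was 0.50 (0.36 to 0.87). Of these, 50 (86.2%) lay above 0 and 18 at 2-fold or more (background 6.17%). Median called widths in these 58 regions were 27.5 kb in NPC and 13.2 kb in ESC, and ESC reads in the gaps are missing from the ratio.

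By density the picture differed. The median fused region had 79.7 reads per kb in NPC and 84.4 reads per kb in ESC. The log2 density, scaled to island reads, had a median of -0.50 (-0.52 to -0.48) with an SD of 0.27, and was above 0 in 2 regions (0.227%), where 1.65% of all shared regions were. It lay at or below -1 in 56 regions (6.36%, background 15.5%) and at or above 1 in 0 (background 0%). The share at or below -1 was 18.0% in regions of 1 and 1, which were narrower (median width 6200 bp, against 18000 bp in fused regions). It was 4.85% in split regions and 3.54% in regions of several ESC and several NPC islands. By widest gap the median was -0.47 up to 1000 bp (-0.49 to -0.45), -0.56 from 1200 to 2000 bp and from 2200 to 8000 bp, and -0.47 over 8000 bp (-0.57 to -0.41). By the part of the NPC island in gaps it was -0.43 under 10%, -0.57 from 10% to 25%, -0.62 from 25% to 50% and -0.76 from 50% upward (rho -0.43 over the 881 regions). Median NPC island widths in these groups were 20000, 9000, 14100 and 16400 bp. Log2 density also differed with region width. From 4 to 8 kb the median was -0.73 (-0.82 to -0.65) when fused and -0.54 (-0.55 to -0.53) in regions of 1 and 1. From 8 to 16 kb it was -0.60 (-0.62 to -0.56) and -0.49 (-0.50 to -0.48) in turn. From 16 to 32 kb it was -0.47 and -0.43, and from 32 kb upward -0.36 and -0.37, with overlapping intervals at both widths. The fused median was thus the lower of the pair at like width up to 32 kb. The part of region width in the trend with gap share was not tested. Without scaling to island reads the median over all fused regions was -0.058, and 341 (38.7%, background 39.4%) lay above 0.

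**Figure D4:**
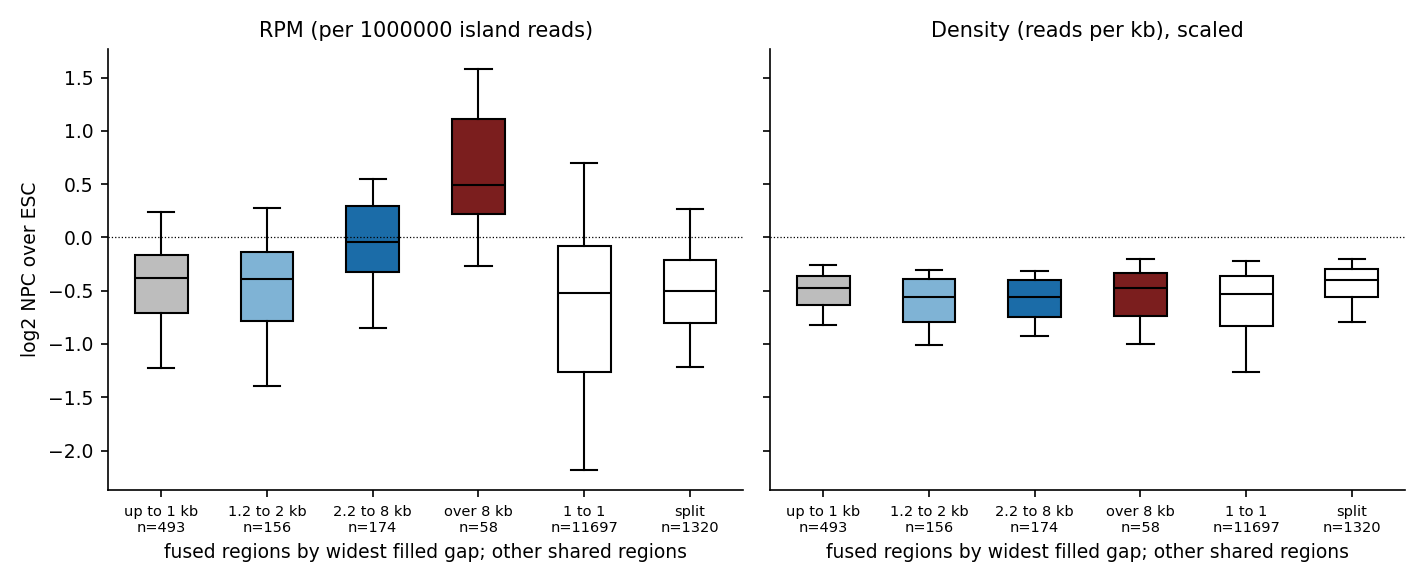
Log2 of NPC over ESC for RPM (left) and for scaled density (right), in fused regions by widest filled gap, in regions of 1 ESC and 1 NPC island and in split regions. Lines are medians, boxes the 25th to 75th and whiskers the 10th to 90th percentiles over regions. The median RPM log2 is -0.38 where every gap is at most 1 kb and 0.50 where a gap is over 8 kb, and the density medians by widest gap lie between -0.56 and -0.47. Reads in filled gaps count in NPC alone.

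Fused regions were wide, and width changed how they compared with regions of 1 ESC and 1 NPC island. The median region was 18 kb wide when fused and 6.2 kb in the class of 1 and 1, whose median log2 RPM was -0.52. Of all shared regions, the fused made up 0% under 4 kb, 7.66% from 8 to 16 kb and 22.1% (19.1% to 25.2%) from 32 kb upward. In regions of 16 to 32 kb the median log2 RPM was -0.26 (-0.30 to -0.21) in fused regions and -0.041 (-0.12 to 0.036) in the class of 1 and 1. From 8 to 16 kb it was -0.45 (-0.49 to -0.38) in fused regions and -0.35 (-0.38 to -0.32) in the class of 1 and 1. From 4 to 8 kb both medians were -0.57. From 32 kb upward they were -0.023 (-0.17 to 0.074) in fused regions and 0.091 (-0.072 to 0.30) in the class of 1 and 1, with overlapping intervals. The fused regions thus had the higher median RPM log2 over all widths, and the lower one, with intervals apart, from 16 to 32 kb and from 8 to 16 kb only. Split regions of 16 to 32 kb had a median of -0.50.

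How strongly the filled gaps themselves were marked in NPC was estimated, since each NPC island has a single read number. Density rose with the width of the NPC island across the 881 regions (Spearman rho 0.57) and was lower where gaps took a larger part of it (rho -0.40). The part in gaps is a share of the island width, so these relations overlap. These points share 1 library. A least-squares split of NPC reads over ESC-covered, gap and flank bases gave 92.0 reads per kb (SE 0.532) for covered bases, 76.0 (SE 1.82) for gaps and 90.2 (SE 1.57) for flanks. The SEs treat regions as independent. In the 232 regions with a gap over 2000 bp the values were 90.9 for covered bases, 81.8 (SE 2.05) for gaps and 81.9 for flanks. With an intercept, added after seeing the data, they were 97.0, 92.6 (SE 1.97) and 88.3, and the intercept was -263 reads (SE 24.8). The gap estimate, and its order against the flanks, thus depended on the form of the fit. In the 649 regions with shorter gaps the fit without an intercept gave -107 reads per kb for gaps, which no density can be, so the split does not resolve short gaps.

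At like width, NPC islands with large filled gaps had somewhat lower median densities than islands of the class of 1 and 1. From 16 to 32 kb, islands with at least 25% of their bases in gaps had a median of 81.1 reads per kb (76.8 to 82.8, n = 56). Fused regions with under 10% in gaps had 83.8 (82.1 to 85.3), islands of the class of 1 and 1 had 83.9 (83.2 to 84.6) and islands called in NPC alone had 81.2 (80.7 to 81.9). From 8 to 16 kb the same 4 medians were 72.7 (69.8 to 75.5), 75.7 (74.6 to 78.2), 76.9 (76.3 to 77.4) and 75.6 (75.3 to 76.0) reads per kb. In both of these width classes the interval of islands with at least 25% in gaps lay below that of the class of 1 and 1. In narrower and wider islands the median was also lower with at least 25% in gaps, but the intervals overlapped. From 4 to 8 kb it was 70.4 (67.9 to 74.9, n = 33), against 73.3 (72.9 to 73.75) in the class of 1 and 1. From 32 kb upward it was 86.3 (81.5 to 93.4, n = 21), against 89.7 (88.2 to 91.2). Single islands spread more widely, with 25th to 75th percentiles at 16 to 32 kb of 74.9 to 85.9 reads per kb with at least 25% in gaps and 77.7 to 90.8 in the class of 1 and 1.

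**Figure D5:**
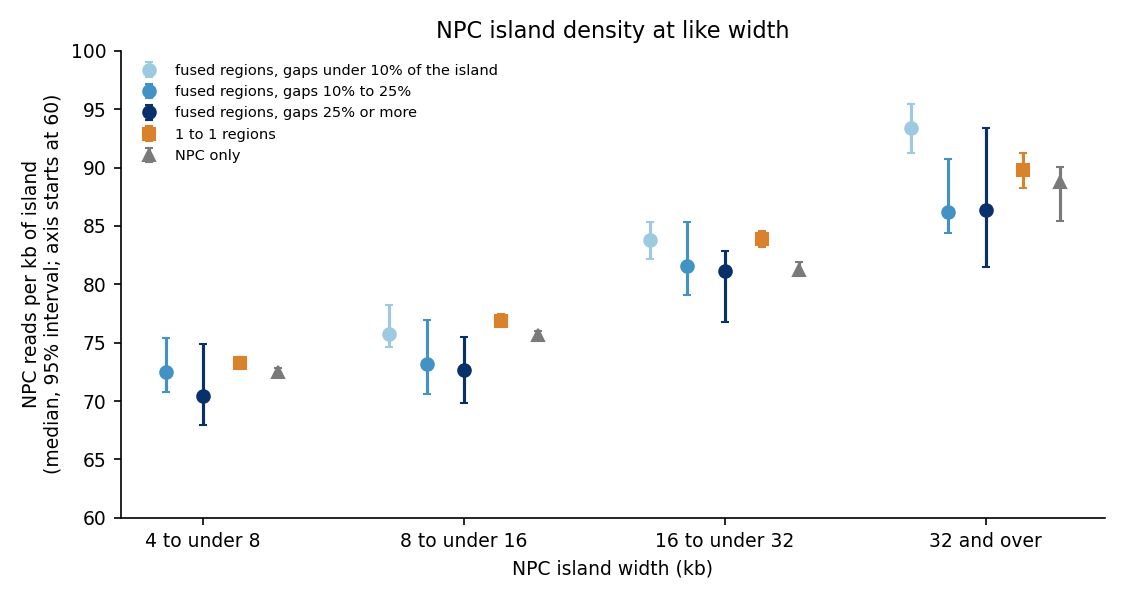
Median reads per kb of NPC islands by island width, for fused regions by the part of the island in filled gaps, regions of 1 ESC and 1 NPC island and islands called in NPC alone, with 95% intervals from order statistics on an axis that starts at 60. In islands of 16 to 32 kb the medians lie between 81.1 and 83.9 reads per kb.

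Of the 5 fused regions with most NPC reads, 3 had at least 91.7% of the NPC island in ESC islands. The first, on chromosome 2, had 12985 reads in an NPC island of 123 kb at 32990401 to 33113400. Its 3 ESC islands held 4728, 2906 and 3631 reads over 48.2, 35.6 and 38.6 kb, with gaps of 1 and 0.8 kb. The next 2 regions, from 140529801 on chromosome 5 and from 120927601 on chromosome 6, had 10840 and 10519 NPC reads and 91.7% and 94.2% of the NPC island in ESC islands. The other pair had long flanks. From 30820001 on chromosome 17, an NPC island of 99.6 kb with 9901 reads had ESC islands of 2.8 and 18.6 kb with 282 and 1846 reads, and 77.2 kb in flanks. From 94884801 on chromosome 1, an NPC island of 96.2 kb with 9895 reads had 30.6 kb in flanks.

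The 5 highest log2 densities belonged to regions with 99.9 to 107 reads per kb in NPC, above the 90th percentile of fused regions, 95.4. Their ESC density was 71.3 to 79.9 reads per kb, below the fused median of 84.4. Both follow in part from ranking the regions by the ratio of these densities. On chromosome 4, from 62902601, density was 102 reads per kb in NPC and 71.3 in ESC, a log2 of 0.071 (-0.0088 to 0.15). On chromosome 17, from 25500601, it was 99.9 reads per kb in NPC and 72.2 in ESC, a log2 of 0.025 (-0.066 to 0.12). Both intervals included 0, as did those of the next 3, on chromosome 6 (start 86554801), chromosome 9 (start 108857601) and chromosome 8 (start 13575001).

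The lowest log2 densities belonged to regions with a dense ESC island, which follows in part from ranking by a ratio with ESC density below the line. On chromosome 1, an NPC island at 187027001 to 187034200 held 433 reads at 60.1 reads per kb. The ESC islands in that region held 304 and 749 reads at 190 and 187 reads per kb, 2.4 kb apart, and the log2 density was -2.09 (-2.25 to -1.93). On chromosome 14, from 32017601, density was 79.9 reads per kb in the NPC island. In ESC an island of 197 reads per kb lay 9.6 kb from one of 88.6 reads per kb. On chromosome 6, from 124397801, NPC had 73.0 reads per kb, and the ESC islands 83.7 and 175. The other pair, on chromosome 18, had values of -1.61 and -1.57. Copy number of these stretches in the genome was not tested.

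Fused regions lay on every autosome. They made up 3.72% (2.35% to 5.58%) of shared regions on chromosome 13, the lowest share, and 8.28% (6.67% to 10.1%) on chromosome 5, the highest. On chromosome 13 there were 22 fused and 56 split regions, and on chromosome 12 there were 43 fused and 44 split. Split regions were the more numerous on each of the 19 chromosomes. The nearest other NPC island lay a median of 1.4 kb from a fused region, against 1.4 kb from a split region and 3.6 kb from a region of 1 and 1. For the nearest other ESC island the medians were 3.4, 2.8 and 5.8 kb in the same order.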

How the data were processed

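Islands were made on mm9 with SICER 1.1, and the tools SAMtools 0.1.7, CASAVA 1.8.2, bedtools 2.10.1 and Bowtie 0.12.7 are also named, per the submitters' processing notes. The authors deposited 1 list per cell type (window 200 bp, gap 600 bp, false discovery rate 0.01, from the list names), whose whole numbers were read as counts of H4K16ac reads per island. Treatment of duplicates and use of the input are not given in the sources used here. Lists hold no reads outside islands, so library depth is unknown. Island reads on all chromosomes came to 24386370 in NPC and 17935144 in ESC, and the median autosomal island held 313 reads in NPC and 281.5 in ESC.

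RPM and density were scaled to these totals. Shares have exact Clopper-Pearson 95% intervals, and medians order-statistic intervals. Members and named regions, the latter 5 by each of number of ESC islands, filled bases, widest gap, NPC reads and highest and lowest log2 density (at least 100 reads in each list), were chosen with earlier results of these data known. No gene list was used. Genes and sequences were not assigned, because an mm9 annotation and genome were not used here. Alternatives changed overlap, read minimum, joining distance, list length, scaling and the least-squares fit. Code was tested on simulated lists and reads, and region counts equalled those of bedtools. Tools were scipy 1.17.1, pandas 2.3.3, numpy 2.4.6 and matplotlib 3.10.9 under Python 3.11.15.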

Additional observations from a re-analysis of the deposited data

How the results depend on the processing

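Alternatives gave 48 further values. Of these, 20 lay inside the 95% interval of the value in the text (for the number of regions, within 1.5 times it), 23 outside it and 5 changed sign or side. The causes were not tested, and no setting leaves out a library, since each cell type had 1. No paired analysis was possible because each cell type had a single H4K16ac library. Settings by gap width of the members and the fit with an intercept were chosen after seeing the data.

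Joining islands across gaps up to 2000 bp in both lists removes short gaps and changed most. It gave 881 fused regions again, but 312 of the reported ones lay inside these, among them 202 of the 232 with a gap over 2000 bp. Fused regions then outnumbered split ones, at a ratio of 1.41, 81.5% had exactly 2 ESC islands, the median gap was 6000 bp and took 25.2% of the NPC island, and 4.04% of gaps were filled. The median log2 RPM was 0.093 and the median log2 density -0.54.

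Requiring 50% of the shorter island gave 8.08% of the NPC island in gaps, 2.66% of gaps filled, and medians of -0.24 for RPM and -0.48 for density. Islands with at least the median reads gave 7.54%, 5.63%, -0.34 and -0.46 for these, and a ratio of fused to split regions of 0.989. With the NPC list cut to the ESC length that ratio was 0.878. Scaling by reads in shared regions gave medians of 0.11 for RPM and -0.092 for density, and density not scaled to island reads -0.058. With a gap over 2000 bp the medians were 0.092 for RPM and -0.53 for density, and with gaps up to 1000 bp -0.38 and -0.47. The estimate of NPC reads per kb in gaps was 70.4 when weighted by width, 81.8 with a gap over 2000 bp, 87.2 with an intercept and -107 with gaps up to 2000 bp. In the fit with an intercept, covered bases had 100.3 reads per kb.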

Other observations

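Some fused regions lay close together. With neighbours up to 100 kb apart counted as a run, a distance chosen after seeing the data, 596 fused regions stood alone, 103 runs had 2, 21 had 3 and 4 had 4. The runs of 4 were at 121691001 to 121779600 on chromosome 14, 25099001 to 25311200 on chromosome 17, 144889601 to 144986200 on chromosome 5 and 67050201 to 67205600 on chromosome 9. The tightest runs of 3 were on chromosome 8 (35.6 kb, start 124164801) and chromosome 2 (37 kb, start 30931401). Whether fused regions cluster more than other shared regions was not tested.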
